A study of Mus musculus with 5 samples.

Results

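Immunoglobulin variable (V) segment transcripts are the part of the antibody genes that is read from the individual Ighv, Igkv and Iglv segments, and their levels were described here in blood stem and progenitor cells of wild-type (WT) and Gabbr1 null mice. The members were all genes of the annotation class IG_V_gene whose symbol starts with Ighv, Igkv or Iglv and that had at least 1 count over the 5 libraries, so they were selected on their summed counts. This gave 141 of the 39056 genes in the table, namely 83 heavy chain (Ighv), 55 kappa light chain (Igkv) and 3 lambda light chain (Iglv) segments. The difference between genotypes was not used. Another 75 of the 216 segments so named had 0 counts, while 21 members had 1 count and 19 had 2 counts.

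RNA came from Lin−Sca-1+Kit+ (LSK) marrow cells, a gate for blood stem cells and early progenitors. About 12000 cells were sorted for a library, from C57BL/6 mice at postnatal day 15. The 2 WT libraries carried no mutation by their labels, and the 3 null libraries were from Gabbr1 null mutants, and Gabbr1 encodes a GABA-B receptor subunit. The sources used here do not give the allele, its deleted part or the cells it was deleted in. The extraction protocol gives 4 animals per genotype, the series design gives 2 WT and 3 null, and no label ties a library to its own animal. P-values thus measure only the spread between these libraries, which may in part be technical. By its counts of Xist and Y-linked genes, given below, null library 1 came from other animals than null libraries 2 and 3.

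Antibody genes are assembled in B cell precursors. The Rag1 and Rag2 recombinase joins 1 of many V segments to the short D and J segments of the heavy chain, or to a J segment of a light chain, and the joined V exon is then spliced to a constant region. Heavy chain joining comes before light chain joining, kappa usually comes before lambda, and each B cell and its daughters carry their own joined V segments. V segments can also be transcribed before they are joined, and counts per segment do not tell joined from unjoined transcripts.

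The V segments with the most counts are shown first, because 1 kappa and 1 heavy chain segment carried most of the difference between the genotypes' mean sums. Sequences are germline coding strands, 5′ to 3′, from the GENCODE M21 transcripts on GRCm38 (mm10). In the first 9 sequences capitals mark the conserved cysteine codon before the third complementarity-determining region and the germline bases after it, where joining takes place. For the leading pair the last 300 coding bases are given.
Igkv15-103: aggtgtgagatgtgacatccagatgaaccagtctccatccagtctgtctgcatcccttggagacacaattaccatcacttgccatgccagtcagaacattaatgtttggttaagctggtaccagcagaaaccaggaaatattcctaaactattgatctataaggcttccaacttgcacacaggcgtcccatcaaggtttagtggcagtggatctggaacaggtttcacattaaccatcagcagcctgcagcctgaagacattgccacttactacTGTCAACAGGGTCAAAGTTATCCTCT
Ighv7-1: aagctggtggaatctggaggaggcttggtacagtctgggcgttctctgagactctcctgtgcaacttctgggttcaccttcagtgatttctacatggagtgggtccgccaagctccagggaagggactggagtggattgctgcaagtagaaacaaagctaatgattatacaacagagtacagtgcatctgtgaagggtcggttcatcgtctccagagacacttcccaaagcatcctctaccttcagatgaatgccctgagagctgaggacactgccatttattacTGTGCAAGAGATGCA
The last 60 coding bases follow for 4 segments that were read mainly in 1 or a pair of libraries (Igkv6-13, Igkv4-70, Igkv3-2, Ighv6-3) and 3 heavy chain segments read in most or all libraries (Ighv1-77, Ighv1-74, Ighv14-2).
Igkv6-13: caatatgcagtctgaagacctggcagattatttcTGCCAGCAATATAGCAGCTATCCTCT
Igkv4-70: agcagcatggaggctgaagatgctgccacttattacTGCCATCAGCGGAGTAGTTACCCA
Igkv3-2: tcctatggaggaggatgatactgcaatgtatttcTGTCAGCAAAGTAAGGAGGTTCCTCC
Ighv6-3: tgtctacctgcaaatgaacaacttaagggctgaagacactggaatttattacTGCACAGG
Ighv1-77: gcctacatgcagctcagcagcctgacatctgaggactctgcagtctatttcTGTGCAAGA
Ighv1-74: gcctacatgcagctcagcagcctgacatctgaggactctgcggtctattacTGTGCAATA
Ighv14-2: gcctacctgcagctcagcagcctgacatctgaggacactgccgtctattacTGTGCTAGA
The lambda segments Iglv1 and Iglv2 are near copies of each other, and their first 300 coding bases are shown. Within these 300 bases capitals mark the 8 at which they differ, and differences outside this stretch are not marked.
Iglv1: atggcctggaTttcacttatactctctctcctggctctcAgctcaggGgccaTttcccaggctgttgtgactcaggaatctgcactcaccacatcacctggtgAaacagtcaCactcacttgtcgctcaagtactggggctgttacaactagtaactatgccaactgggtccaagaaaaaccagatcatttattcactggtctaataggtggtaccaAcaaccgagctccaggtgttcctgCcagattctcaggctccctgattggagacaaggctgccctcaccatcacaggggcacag
Iglv2: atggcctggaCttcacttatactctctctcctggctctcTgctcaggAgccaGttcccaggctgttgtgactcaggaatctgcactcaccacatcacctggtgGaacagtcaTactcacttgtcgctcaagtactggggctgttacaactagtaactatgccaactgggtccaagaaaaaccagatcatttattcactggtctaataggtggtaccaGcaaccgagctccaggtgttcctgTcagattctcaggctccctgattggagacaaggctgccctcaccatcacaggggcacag
Reads of close relatives could have been split or dropped in counting, so the uniqueness of each segment was measured as the share of its 50-base words found in no other immunoglobulin transcript of the annotation, on either strand. This share was 100% for both Igkv15-103 and Ighv7-1. Over the 141 members it ranged from 2.58% to 100% with a median of 76.7%, and 23 members were under 50%. Igkv4-70 had 36.1% unique words and was 97.5% identical to Igkv4-59, so its counts are less certain than those of the leading pair.

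Total counts lay between 6972753 and 8150774 per library, and V segments took between 344 and 1684 of them, which is 0.00441% to 0.0242%. Gabbr1 had 402 and 403 counts in WT and 289, 264 and 268 in null. Genes of the LSK gate (Kit, Ly6a, Flt3 and Cd34) summed to between 2353 and 3057 CPM (counts scaled to a common library total with TMM factors) and none of the 4 was called. Null library 1 stood apart from the other 4. It had 22532 counts of Xist and 0 of 4 Y-linked genes, against at most 21 and at least 1140 in the others. By these counts it came from female cells and the other 4 from male cells, so sex differed within the null group. Its summed level of 7 neutrophil markers was 2194 CPM against 106 to 585 CPM.

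Summed kappa V transcripts were lower in null than in WT libraries, while summed heavy chain and lambda V transcripts overlapped between genotypes. The 55 Igkv members summed to 56.9 and 154 CPM in WT libraries 1 and 2 and to 12.1, 38.1 and 33.3 CPM in null libraries 1, 2 and 3. Every null library lay below both WT libraries. The mean was 105 ± 68.7 CPM over WT libraries (SD, n = 2) against 27.9 ± 13.8 CPM over null libraries (n = 3), a log2 ratio of -1.92. WT sums of the 83 Ighv members were 44.9 and 84.3 CPM, and null sums were 30.9, 35.6 and 47.7 CPM. Null library 3 lay above WT library 1, and the log2 ratio of the means was -0.76. For the 3 Iglv members WT sums were 3.45 and 1.42 CPM, and null sums of 2.80, 3.96 and 1.73 CPM overlapped them. Without null library 1, which stood apart, the log2 ratio was -1.56 for Igkv, -0.63 for Ighv and 0.22 for Iglv. The WT libraries weighed more: without WT library 2 it was -1.03 for Igkv, -0.24 for Ighv and -0.29 for Iglv, and without WT library 1 it was -2.47, -1.15 and 0.99. Sums over the members were given no p-value, because the members were chosen with results of these data known. In bulk RNA, fewer cells of a type and less RNA per cell cannot be told apart.

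**Figure D1:**
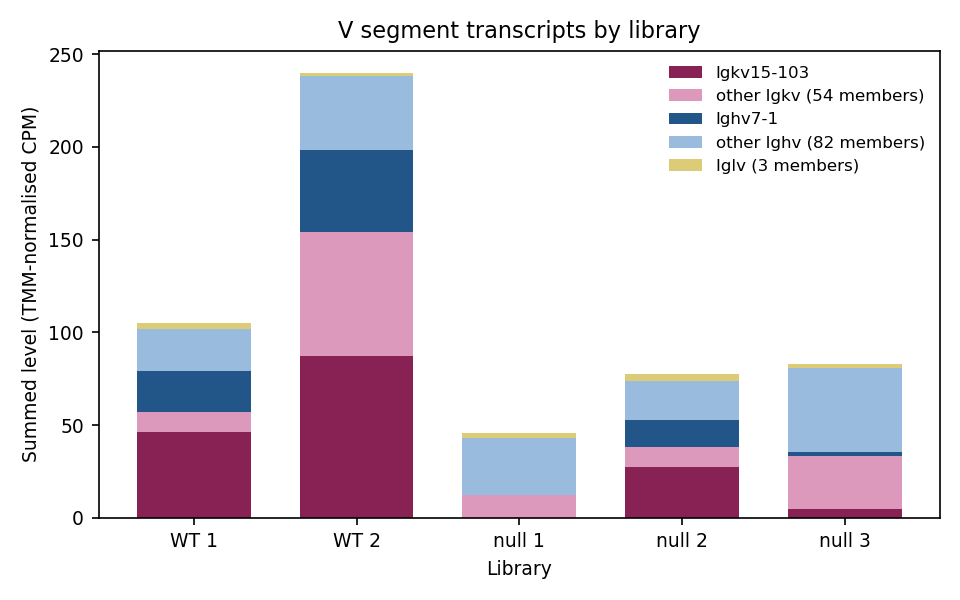
Stacked bars give the summed level of V segment transcripts (TMM-normalized CPM, y axis) in each of the 2 WT and 3 null libraries (x axis), with the leading kappa and heavy chain segment drawn apart from the other members of their loci. Igkv15-103 and Ighv7-1 make up 46.3 and 22.4 CPM in WT library 1 and are next to absent in null library 1.

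The leading kappa segment was Igkv15-103 (ENSMUSG00000076523.2, mm10 chromosome 6, 68437440 to 68437925, plus strand, 2 exons). It had 376 and 613 counts in WT and 1, 207 and 38 counts in null libraries 1, 2 and 3. This gave 46.3 and 87.3 CPM in WT, against 0.133, 27.3 and 4.69 in null. The groups did not overlap, although null library 2 stood well above the other null libraries. WT libraries averaged 66.8 ± 29.0 CPM (SD, n = 2) and null libraries 10.7 ± 14.6 CPM (n = 3). The null over WT change was -2.64 ± 0.74 (SE) on the log2 scale, and the gene did not pass (edgeR quasi-likelihood test, Benjamini-Hochberg adjusted p over 13467 genes = 0.104).

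The leading heavy chain segment was Ighv7-1 (ENSMUSG00000076665.4, chromosome 12, 113896408 to 113896946, minus strand, 2 exons). WT libraries had 182 and 310 counts of it, and null libraries 1, 2 and 3 had 0, 109 and 20. This is the order of libraries seen for Igkv15-103. A count of 0 in null library 1 allows a level of up to 0.400 CPM (3 counts). WT libraries averaged 33.3 ± 15.4 CPM (SD, n = 2) and null libraries 5.62 ± 7.69 CPM (n = 3). On the log2 scale the change was -2.56 ± 0.74 (SE), which missed the threshold (edgeR adjusted p = 0.117). Per kilobase of exon the mean level over the 5 libraries was 88.4 CPM for Igkv15-103 and 45.9 CPM for Ighv7-1.

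The 2 segments lie on different chromosomes, yet they kept 1 ratio in every library that read them. Of the counts of the pair, Ighv7-1 took 32.6% in WT library 1 (exact 95% interval 28.7% to 36.7%) and 33.6% in WT library 2 (30.5% to 36.7%). It took 34.5% in null library 2 (29.3% to 40.02%) and 34.5% in null library 3 (22.5% to 48.1%). The 4 shares lie within each other's counting intervals while the counts of the pair ran from 58 to 923. Null library 1 had 1 count of the pair and gives no share. Intervals cover counting error only.

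**Figure D2:**
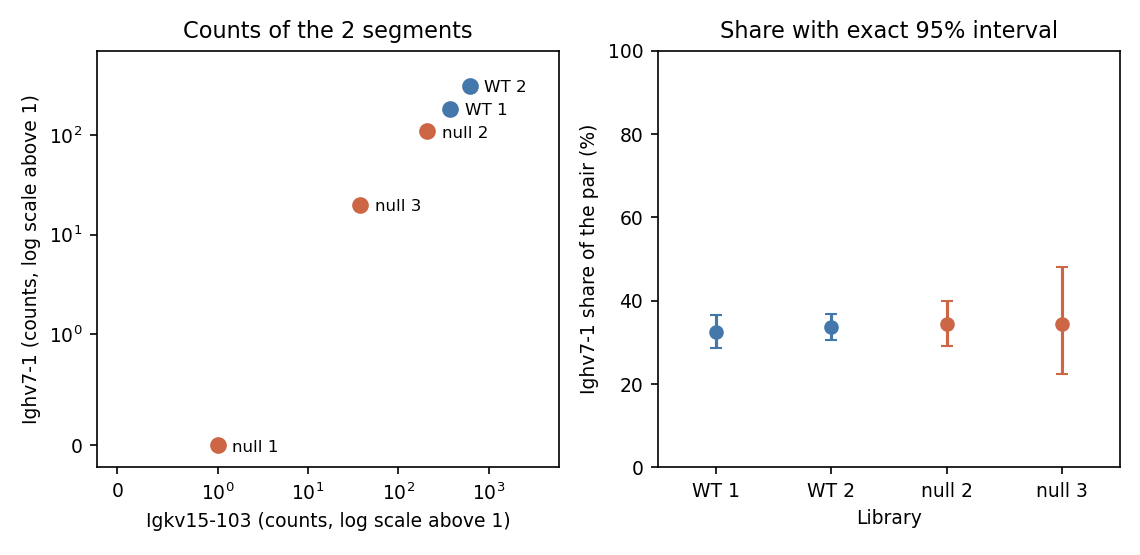
Left, counts of Ighv7-1 against Igkv15-103 in each library (both axes logarithmic above 1; blue, WT; orange, null). Right, the share of Ighv7-1 in the counts of the pair with its exact 95% interval, for the 4 libraries with more than 1 count of the pair, all of them between 32.6% and 34.5%.

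Among all 13467 tested genes, Ighv7-1 was the one whose spread over the 5 libraries was most like that of Igkv15-103. The measure was the share of a gene's CPM that would have to move between libraries to match, and it was chosen after the values were seen. It was 1.15% for Ighv7-1. The next were the pseudogene Gm15971 with 7.29% on few counts, Igkc with 13.6%, Jchain with 15.7% and Jun with 17.7%. Jchain encodes the chain that links antibody units in secreted IgM and IgA, with 118 and 189 counts in WT libraries and 1, 89 and 85 in the null ones. It shared the near absence from null library 1 with the pair, but was relatively higher in null library 3. The difference of Jchain between genotypes did not pass (-1.46 ± 0.66 SE on the log2 scale, edgeR adjusted p = 0.375).

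The pair set much of the locus totals. Igkv15-103 was 81.4%, 56.7%, 1.10%, 71.6% and 14.1% of Igkv counts in WT libraries 1 and 2 and null libraries 1, 2 and 3. Ighv7-1 was 49.9%, 52.4%, 0%, 40.4% and 5.17% of Ighv counts in the same order. Without Igkv15-103 the other Igkv members summed to 10.6 and 66.8 CPM in WT, against 12.0, 10.8 and 28.6 CPM in null. WT library 1 then had the lowest value of the 5 and only WT library 2 stood above the null libraries. Without Ighv7-1 the other Ighv members summed to 22.5 and 40.2 CPM in WT, against 30.9, 21.2 and 45.3 CPM in null, with a log2 ratio of 0.05.

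Much of the remainder was read in a single library. Of the 49 members with at least 10 counts, 19 had at least 80% of their counts in 1 library, a limit chosen after the values were seen. WT library 2 held 9 of these segments, null library 3 held 6, WT library 1 and null library 2 held 2 each, and null library 1 held none. They took 37.1% of V counts in WT library 2 and 37.0% in null library 3, and between 5.77% and 6.98% in the other 3.

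The largest of the segments peculiar to WT library 2 was Igkv6-13, with 199 of its 201 counts there. Igkv4-70 had all of its 119 counts in that library, and so did Ighv1-85 with 53, Ighv3-1 with 47 and Igkv4-74 with 17. In null library 3 the segment Igkv3-2 had 62 of 63 counts, Igkv12-89 had all 46 and Ighv5-6 had 49 of 53. Both genotypes thus held libraries with many such segments and libraries with few. Ighv6-3 was read in 1 library of each genotype, with 30 counts in WT library 1 and 52 in null library 3 against 1, 0 and 0 in the other 3.

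**Figure D3:**
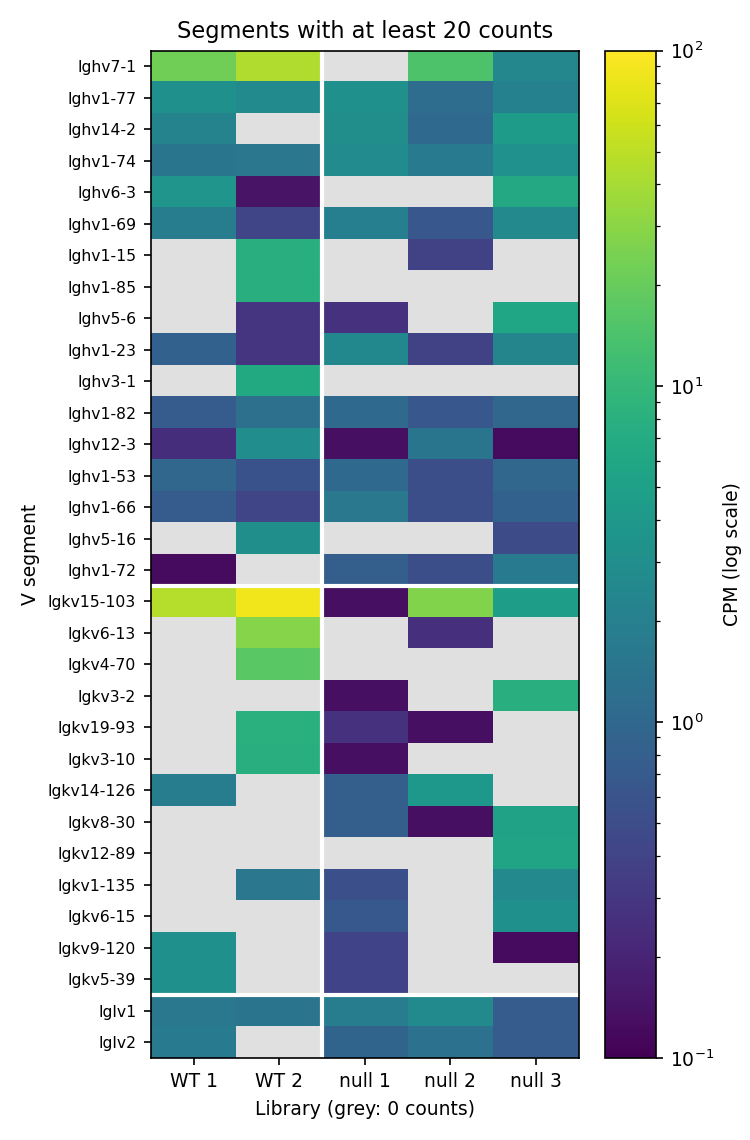
Level of each V segment with at least 20 counts (rows, by locus and total count) in each library (columns); color is CPM on a log scale and grey marks 0 counts. Ighv1 segments such as Ighv1-77 and Ighv1-74 appear in all 5 libraries, whereas segments such as Igkv6-13 (199 of 201 counts) and Igkv12-89 (46 of 46) were read mainly in 1.

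Other heavy chain segments were read in every library at low levels, which for some differed several-fold between libraries. Of the 141 members 16 had counts in all 5 libraries, and 13 of these were Ighv segments, which summed to 12.4 and 12.1 CPM in WT, against 16.8, 7.79 and 15.5 CPM in null. Ighv1-77 had 26 and 19 counts in WT and 24, 9 and 17 in null, which overlapped (-0.45 ± 0.47 SE on the log2 scale, edgeR adjusted p = 0.765). Ighv1-74 had 12 and 11 counts in WT and 21, 13 and 27 in null, and its null libraries all lay above WT (0.78 ± 0.47 SE on the log2 scale, edgeR adjusted p = 0.55). Ighv12-3, also read in every library, had 2 and 21 counts in WT and 1, 11 and 1 in null, with WT library 2 and null library 2 high. Ighv14-2 had 18 and 0 counts in WT and 23, 8 and 36 in null, and null libraries 1 and 3 lay above both WT libraries while null library 2 lay between them.

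By family, the largest heavy chain group was Ighv1, known as J558, with 731 counts over 43 members. WT sums were 13.9 and 26.6 CPM, within which 2 of the 3 null sums of 22.1, 12.3 and 21.2 CPM lay. Without its members read mainly in 1 library WT sums were 13.9 and 11.3 CPM and null sums 22.1, 11.9 and 21.2 CPM. The order of libraries changed with this: null libraries 1 and 3 then lay above both WT libraries and null library 2 between them, and the groups again overlapped. Ighv7, known as S107, summed to 22.4 and 44.1 CPM in WT, against 0.266, 14.6 and 2.96 CPM in null, and 98.7% of its counts were Ighv7-1. Of 24 families with at least 20 counts, 3 lay higher in every null library than in both WT libraries (Ighv2, Ighv8 and Igkv10) and 2 lay lower (Ighv7 and Igkv15). Among the tested genes 29.2% had groups without overlap, 15.5% higher and 13.7% lower, against 5 of 24 families. Igkv10 had 0 counts in both WT libraries and 10, 9 and 4 in null, while Ighv8 had 4 and 0 in WT and 10, 17 and 9 in null.

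Kappa V counts kept pace with Igkc, the kappa constant region gene. Igkc had 1224 and 2394 counts in WT and 238, 842 and 708 in null. Per 100 Igkc counts there were 37.7 and 45.2 Igkv counts in WT libraries, against 38.2, 34.3 and 38.1 in null libraries, a narrow range beside that of Igkc. The segments behind this ratio differed by library: Igkv15-103 alone gave 30.7 and 25.6 per 100 Igkc counts in WT and 0.420, 24.6 and 5.37 in null. The other Igkv members gave 7.03 and 19.6 per 100 Igkc counts in WT, against 37.8, 9.74 and 32.8 in null. The fall of Igkc in null (-1.68 ± 0.40 SE on the log2 scale, edgeR adjusted p = 0.0486) stood beside these ratios, whose ranges overlapped between genotypes. Of 8 tested immunoglobulin constant and J chain genes Igkc was the 1 called lower. The 1 called higher was Ighg2b, an IgG constant gene, with 4 and 0 counts in WT and 56, 58 and 94 in null (5.00 ± 0.61 SE on the log2 scale, edgeR adjusted p = 0.000998).

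Heavy chain V counts were a smaller part of their constant region counts. Per 100 counts of all Igh constant rows there were 8.72 and 10.0 Ighv counts in WT, against 4.42, 5.87 and 6.26 in null, and the groups did not overlap. Without Ighv7-1 there were 4.37 and 4.76 in WT, against 4.42, 3.501 and 5.94 in null, which overlapped. Ighm, the IgM constant region gene, had 4110 and 5865 counts in WT and 5041, 4451 and 5955 in null and set most of the denominator. Igkv and Iglv together were 57.3% and 64.8% of V counts in WT and 32.6%, 54.2% and 42.3% in null, with no overlap. Without the leading segment of each locus the share was 35.6% and 62.5% in WT, against 29.5%, 36.4% and 39.5% in null, so WT library 1 fell within the null range.

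**Figure D4:**
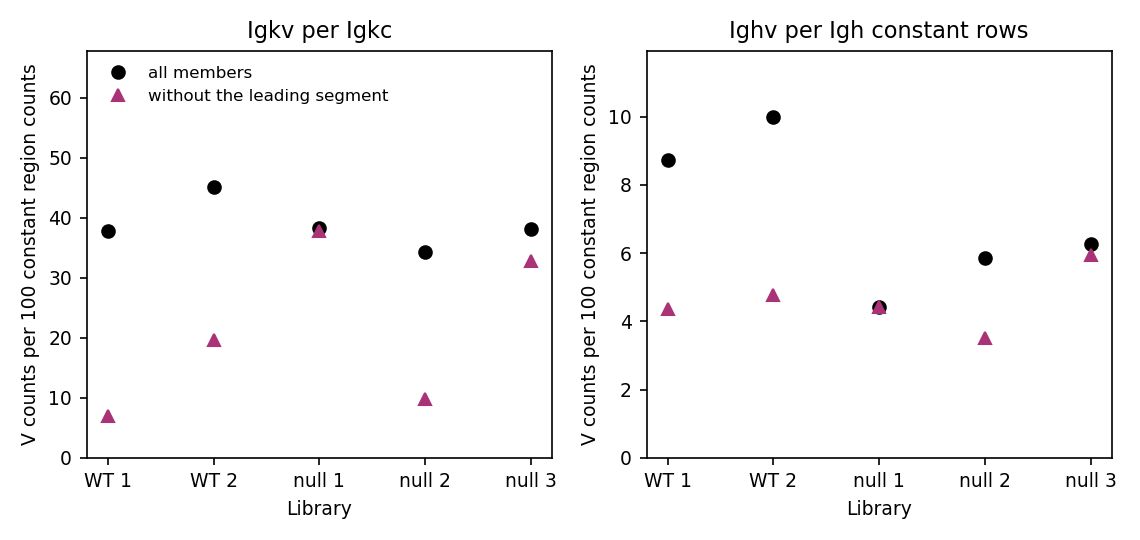
V counts per 100 constant region counts (y axes) for kappa (left) and heavy chain (right) in each library, over all members (circles) and without the leading segment Igkv15-103 or Ighv7-1 (triangles). Kappa circles lie between 34.3 and 45.2, and the triangles range from 7.03 to 37.8.

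Lambda V segments were rare in both genotypes. Iglv1 (chromosome 16, 19085017 to 19085500, minus strand) had 13 and 10 counts in WT and 14, 20 and 6 in null, which did not pass (0.20 ± 0.57 SE on the log2 scale, edgeR adjusted p = 0.937). Iglv2 had 14 and 0 counts in WT and 7, 10 and 6 in null, and Iglv3 had 3 counts in all. The 2 near copies are 96.7% identical over their transcripts, so a split of reads between them is uncertain while their sum is less so. The groups overlapped for each of the 3 segments.

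No V segment passed the test between genotypes. The filter on low counts kept 13 of the 141 members, which are those read well in at least 2 libraries. Of these, 0 were called higher and 0 lower in edgeR, where 2.48% of the 13467 tested genes were called, 2.15% higher and 0.334% lower. DESeq2 and limma-voom also called 0, and 2 members, Igkv15-103 and Ighv7-1, had an unadjusted p under 0.05 in edgeR and in limma-voom, against 0 in DESeq2. Both were called lower when null library 1 was left out (edgeR adjusted p = 0.00552 and 0.0108) or null library 2 was (0.000545 and 0.000972). Without null library 3 neither was called (edgeR adjusted p = 0.211 and 0.234). Fits without 1 of the WT libraries leave a single WT library. Segments read mainly in that library can then pass the filter, so calls of these fits are not taken as differences between genotypes. The segments called lower without WT library 1 all had at least 80% of their counts in WT library 2. The median log2 fold change of the 13 members was 0.20, and that of all tested genes was -0.0045. Apart from the leading pair, the lowest edgeR p among tested Ighv members was that of Ighv1-23, with 7 and 2 counts in WT and 19, 3 and 19 in null (1.56 ± 0.80 SE on the log2 scale, edgeR adjusted p = 0.455).

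Null libraries held more different V segments than WT libraries. The number of Ighv segments with a count was 31 and 31 in WT and 51, 54 and 52 in null. Since the number grows with depth, each library was thinned by the hypergeometric formula to 232 Ighv counts, the total of null library 1, and the expected number was 27.9 and 21.8 in WT and 51.0, 50.7 and 43.0 in null. At 91 Igkv counts it was 7.08 and 7.42 in WT and 33.0, 11.6 and 14.6 in null. All null libraries lay above both WT libraries at both loci. The mean difference was 23.4 Ighv and 12.5 Igkv segments, and without null library 1 it was 22.0 and 5.80. Among members with at least 10 counts it was 6.09 Ighv and 2.97 Igkv segments, at 175 and 43 counts. Reads of close relatives could have been split or dropped in counting, which could change such numbers. Of the 141 members 23 had under 50% unique words, and the numbers were not computed without them.

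A dominant segment lowers such a number, so it was also computed without Ighv7-1 and Igkv15-103, an alternative added after the values were seen. At 161 other Ighv counts it was 29.3 and 24.4 in WT and 44.2, 53.0 and 37.0 in null. At 82 other Igkv counts it was 10.9 and 7.87 in WT and 30.9, 20 and 13.9 in null. The groups lay apart at both loci. Among Igkv members with at least 10 counts, at 43 counts, the number was 3.84 and 5.81 in WT and 12, 4.60 and 6.79 in null, which overlapped. Summed levels of 11 pre-B cell receptor genes were 615 and 602 CPM in WT, against 1390, 1002 and 1340 CPM in null. Most of the WT sums came from Syk (353 and 430 CPM) and Btk (121 and 106 CPM), which were not called. The part of the 11 genes in the number of segments was not tested.

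**Figure D5:**
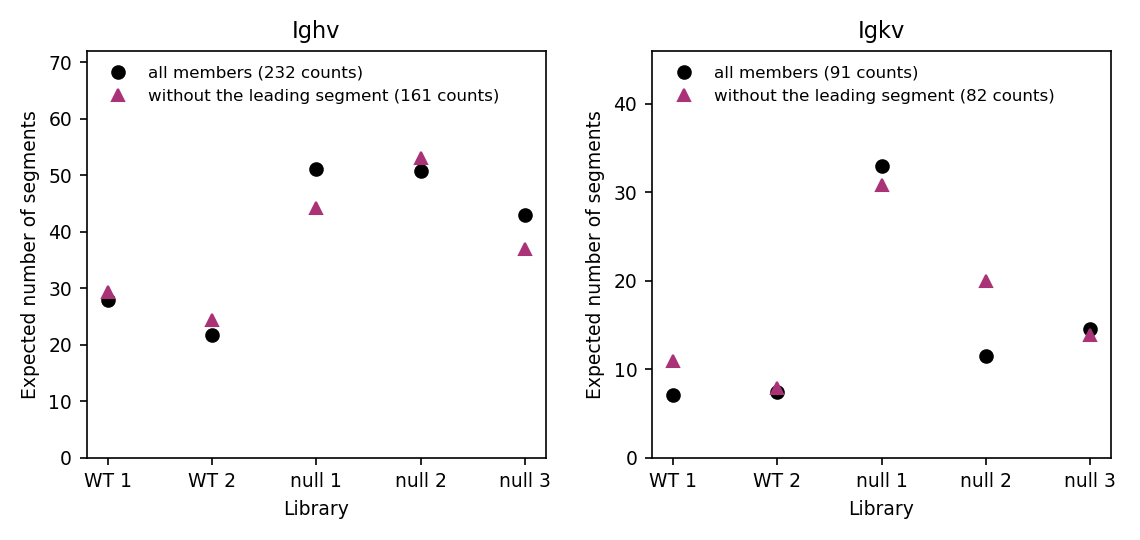
Expected number of different V segments per library (y axis) when every library is thinned to the same number of V counts, given in the legend, for Ighv (left) and Igkv (right), over all members (circles) and without the leading segment (triangles). Null libraries lie between 37.0 and 53.0 for Ighv and WT libraries between 21.8 and 29.3.

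Segments with counts in all 3 null libraries and none in WT were mostly faint. There were 14 such members, 10 of them Ighv and 4 Igkv, with totals from 3 to 50 counts. They entered the set through their null counts alone. In turn 0 members had counts in both WT libraries and none in null. These patterns ask for absence from unlike numbers of libraries, 2 WT and 3 null. Their share among all genes at such counts was not computed. Ighv3-6 was one of the 14, with 0 and 0 counts in WT and 4, 1 and 5 in null. Another was Igkv8-30, with 0 and 0 in WT and 6, 1 and 43 in null, most of it in 1 library. Over all 141 members, 17 had null libraries that all lay above WT and 3 had null libraries that all lay below. Most of these failed the filter on low counts, and no share was computed for other genes at such counts. The 17 and 3 are therefore a description without a reference and are not set against the tested genes. Of the 13 tested members 1 (Ighv1-74) lay higher and 2 (Ighv7-1 and Igkv15-103) lay lower, where 15.5% and 13.7% of tested genes did. At this depth a count of 0 allows a level of up to 0.369 to 0.427 CPM (3 counts), so absence of a single segment from WT was not established.

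Position in the heavy chain locus separated the genotypes no longer once the leading segment was left out. The Ighv members span chromosome 12 from 113578504 to 116000461 on the minus strand, with the D segments below the low end. The 42 members nearest the D segments took 68.8% and 78.4% of Ighv counts in WT and 28.0%, 66.7% and 56.8% in null, with Ighv7-1 as segment 14 from the D side. Null library 2 lay close below WT library 1 and the groups did not overlap. Without Ighv7-1 the nearer 41 of 82 members took 37.7% and 54.6% in WT and 28.0%, 44.1% and 54.5% in null, which overlapped. Of segments with at least 20 counts, Ighv5-6 and Ighv5-16 lay nearest the D segments, 100.2 and 313 kb away, and had most of their counts in null library 3 (49 of 53) and WT library 2 (22 of 26). Ighv1-82 and Ighv1-85 lay farthest, 2427 and 2475 kb away. Ighv1-82 was read evenly, with 6 and 9 counts in WT and 8, 5 and 8 in null, whereas Ighv1-85 was read in WT library 2 alone.

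The kappa locus differs in that its segments point both ways. 22 Igkv members lie on the plus strand, the strand of Igkc, and 33 on the minus strand, over chromosome 6 from 67555497 to 70699067. Plus strand members took 93.3% and 63.2% of Igkv counts in WT and 44.0%, 88.9% and 52.2% in null, following Igkv15-103, which is one of them. Without it the share was 64.0% and 15.1% in WT and 43.3%, 61.0% and 44.4% in null, and WT library 1 and WT library 2 were the extremes.

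Other genes of the antibody pathway were tested beside the V segments. Of 13 recombination genes, 2 were called higher and 0 lower with a list median of 0.09. These were the recombinase genes Rag1 (2.28 ± 0.36 SE on the log2 scale, edgeR adjusted p = 0.00437) and Rag2 (1.73 ± 0.30 SE, edgeR adjusted p = 0.00807). Of 11 pre-B cell receptor genes 9 were called higher and 0 lower, with a list median of 2.83. They include Igll1, a surrogate light chain gene used before a light chain V segment is joined (2.94 ± 0.40 SE on the log2 scale, edgeR adjusted p = 0.00198). Of 10 tested mature B cell surface genes 4 were higher and 0 lower, and among them Ms4a1, which encodes CD20, had 3 and 2 counts in WT and 81, 61 and 39 in null. Ighd, the IgD constant gene, had 69 and 52 counts in WT and 138, 83 and 127 in null and did not pass (edgeR adjusted p = 0.0946). Of 11 tested plasma cell genes 2 were higher (Irf4 and Mzb1) and 0 lower, with a list median of 0.12, and the 12 genes of the list summed to 367 and 382 CPM in WT, against 449.7, 389.8 and 409 CPM in null. Some endothelial and stromal markers were also higher in all 3 null libraries. Of 8 endothelial and stromal genes 5 were called higher and 0 lower, with a list median of 3.85, and the list summed to 164 and 174 CPM in WT, against 327, 331 and 262 CPM in null. Among them Cdh5, an endothelial cadherin, had 5 and 12 counts in WT and 160, 130 and 164 in null, and Sparc, a matrix protein gene, had 2 and 7 against 249, 193 and 178. The part of these cell types in the V counts and in the B lineage lists was not tested. T cell receptor V segments, as a comparison outside the B lineage, had 53 and 40 counts in WT libraries and 51, 65 and 73 in null libraries. Scaled to CPM these were 6.52 and 5.70 in WT against 6.80, 8.58 and 9.001 in null, so every null library lay above both WT libraries, with null library 1 close to WT library 1.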

How the data were processed

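Whole-number counts per gene for 2 WT and 3 null libraries were deposited by the authors, as raw values in a column for each library. The submitters' processing notes name STAR, featureCounts and mm10. Libraries were made from 3.6 to 5 ng of RNA with targeted depletion and read as pairs of 50 bp, per the labels' protocols. The sources used here do not give versions, annotation release, strand setting or the handling of reads with several matches. Replicates were numbered in sample order.

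Gene classes and positions came from GENCODE M21 on mm10, which matched 99.5% of 39056 identifiers. The members and gene lists were chosen with earlier results of these data known. Counts of all genes kept by filterByExpr were TMM-scaled and tested with the quasi-likelihood test of edgeR 4.0.16 in R 4.3.3 (adjusted p under 0.05 over 13467 genes, 3 residual degrees of freedom, standard errors from the F statistic). The code was tested on simulated data. DESeq2 1.42.0, limma-voom 3.58.1, other scalings, filters and each library left out were alternatives. At totals of 6972753 to 8150774 counts, a count of 0 allows up to 0.427 CPM. Shares have exact (Clopper-Pearson) 95% intervals.

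Named members were the 5 Ighv and 5 Igkv with the highest mean CPM, all Iglv, those called or with the lowest p per locus, those nearest to and farthest from the D segments, and families with at least 20 counts; a selection is given, and others were named after their values were seen. A planned correlation with locus sums over 5 libraries was not run, and the likeness measure took its place.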

Additional observations from a re-analysis of the deposited data

How the results depend on the processing

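Without the most abundant segment the log2 ratio of null over WT for the Ighv sum was 0.051 and for Ighv per constant count 0.017, that for Igkv per constant count was 1.01, and the D-proximal share of Ighv differed by -3.95 percentage points. With only members read in every library the Ighv log2 ratio was 0.12, an alternative added after the data were seen. The difference in the number of Ighv segments was 16.7 at 116 counts, 6.09 for members with at least 10 counts and 17.9 without Ighv7-1, always higher in null. With no filter 5 of the 141 members were called higher and 13 lower, where 602 of 23770 genes were called higher and 155 lower. Igkv15-103 and Ighv7-1 were among the members called lower. All other members called had at least 80% of their counts in 1 library, such as Igkv12-89 with all 46.

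With each library left out, log2 ratios ranged from -1.15 to -0.24 for Ighv, -2.47 to -1.03 for Igkv and -0.29 to 0.99 for Iglv, and per constant count from -0.29 to -0.033 for Igkv and -1.57 to -0.24 for Iglv. Without WT library 2 the Ighv ratio was -0.24. The share of Iglv in its most abundant segment ranged from -41.3 to 8.73 percentage points, null minus WT. Igkv segments at equal depth differed by 5.80 to 16.5. Between 3 and 8 families were higher and 2 to 8 lower without overlap, and 0 members were called higher and 0 to 7 lower, where 1 WT library is left assumed to vary like the null ones. The members called lower without WT library 1 were read mainly in WT library 2 and are not taken as differences between genotypes. Other scalings, the stricter filter, DESeq2, limma-voom and an adjusted p under 0.1 changed no call among the members they tested. No paired analysis was possible because the labels give no replicate numbers. The depth of 10 to 30 Iglv counts per library could not show modest differences.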
